A study of Mus musculus with 9 samples.

Results

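The early response factors of the Egr, Nr4a and Klf families were followed in muscle stem cells, known as satellite cells, that lack the Polycomb protein Bmi1 or carry it. The 10 genes were Egr1, Egr3, Nr4a1, Nr4a2, Nr4a3, Klf2, Klf4, Klf6, Klf9 and Klf10, taken by the gene name of the array design, and every probe with such a name was used. They are 10 of 36406 gene names on the array and had 11 of its 55681 probes that are not controls, with 2 probes for Nr4a2 and 1 for each other gene. Donors were Bmi1-deficient mice (KO) and mice of wild type genotype (WT), all FVB, labelled male and 2 months of age, and the cells were sorted as integrin alpha-7 and CD34 positive and as negative for CD31, CD45, CD11b and Sca1. There were 6 KO arrays and 3 WT arrays of 1 colour. The KO arrays formed 3 pairs with a shared number in their descriptions, and each pair was averaged to 1 sample, which gave 3 KO and 3 WT samples. The titles number the 6 KO arrays as separate biological replicates, and the choice decides the calls. Counted as separate samples, the 9 arrays gave 1639 called probes, 3 of them of these genes, as compared to 21 and 0 with the pairs averaged. The labels used here do not say how Bmi1 was removed or whether a sample came from 1 animal or several, so a p-value here sets a difference against the scatter of these samples, whose source may be technical.

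Early response genes are switched on within minutes of a stimulus, without new protein synthesis, by kinases that act on factors already bound to DNA, among them SRF with its ternary complex partners and CREB. Egr proteins are zinc finger factors that bind GC-rich sites, Nr4a proteins are orphan nuclear receptors whose activity follows their amount, and Klf proteins are zinc finger factors of CACCC and GC boxes. Taking muscle apart with enzymes before a sort is itself known to induce such genes in satellite cells. The part of isolation in the values below was not tested.

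Of the 11 probes, 10 were higher in KO (48.0% of all 42983 probes tested were) and 1, that of Klf10, was lower. At an adjusted p of 0.05 limma called 0 of the 11, where it called 0.0489% of all probes (0.0465% higher). At an unadjusted p under 0.05 there were 5 of the 11 probes, all higher in KO, as compared to 6.49% of all probes higher and 4.18% lower at that level. The 3 KO samples lay above the 3 WT samples at the same 5 probes, which belong to Nr4a2, Klf9, Klf2 and Egr3, as compared to 16.5% of all probes without overlap (8.58% with KO higher and 7.94% with KO lower). The median difference of the 10 genes, with 1 probe for each, was 0.45 on the log2 scale, and that of all 28362 genes and features was -0.02. All values below are log2 of the processed signal minus the 75th percentile of the array, and a level at one probe cannot be set against that at another.

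A probe value reports only the 60 bases it binds, so 3 probes are shown first, that of Egr3, whose groups did not overlap, the probe of Nr4a2 with the smaller p, and that of Nr4a3, which is split in the genome. The first belongs to Egr3 (chr14:70479222-70479281, + strand, mm9), the second to Nr4a2 (chr2:56960699-56960758, - strand) and the third to Nr4a3 (chr4:48080690-48083876, + strand). The design places the 60 bases of the Nr4a3 probe across an interval of 3187 bases, so its parts do not lie next to each other in the genome. Letters run 5′ to 3′ and none is marked by capitals.
Egr3 probe: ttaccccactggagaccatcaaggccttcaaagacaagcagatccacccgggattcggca
Nr4a2 probe A_52_P494622: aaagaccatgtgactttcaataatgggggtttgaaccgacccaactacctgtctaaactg
Nr4a3 probe: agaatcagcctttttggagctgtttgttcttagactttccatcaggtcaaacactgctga

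The other probes lie at chr18:35024395-35024454 (Egr1), chr15:101105071-101105130 (Nr4a1), chr2:56959637-56959696 (the second Nr4a2 probe, A_55_P1983508), chr8:74845137-74845196 (Klf2), chr4:55540167-55540226 (Klf4), chr13:5869371-5869430 (Klf6), chr19:23240410-23240469 (Klf9) and chr15:38224255-38224314 (Klf10), all in mm9. Exons and untranslated regions at these positions were not annotated in the sources used here. Each of the 11 probes was well above background on all 9 arrays and saturated on 0, so every member passed the filter on dim probes and no value of a member is a bound.

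The arrays were alike in signal. Between 71.9% and 75.8% of the spots that are not controls were well above background, and arrays of 1 KO sample correlated with an r of 0.9944 to 0.9956 over probes, where the 33 other pairs reached 0.9622 to 0.9786. The 2 Bmi1 probes were not lower in KO (differences of 0.10 and 0.21, limma adjusted p = 0.864 and 0.699). The labels do not say which part of Bmi1 was removed, so these probes do not check the genotype. Cdkn2a, the best known gene under Bmi1 control, was 3.28 ± 0.22 (SE) higher (limma adjusted p = 0.0207). The array of KO replicate 1 is KO by its title and wild type by its genotype field, and was counted here as KO. The 13 satellite cell markers listed, Pax7 and Myf5 among them, were well above background on every array.

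**Figure D1:**
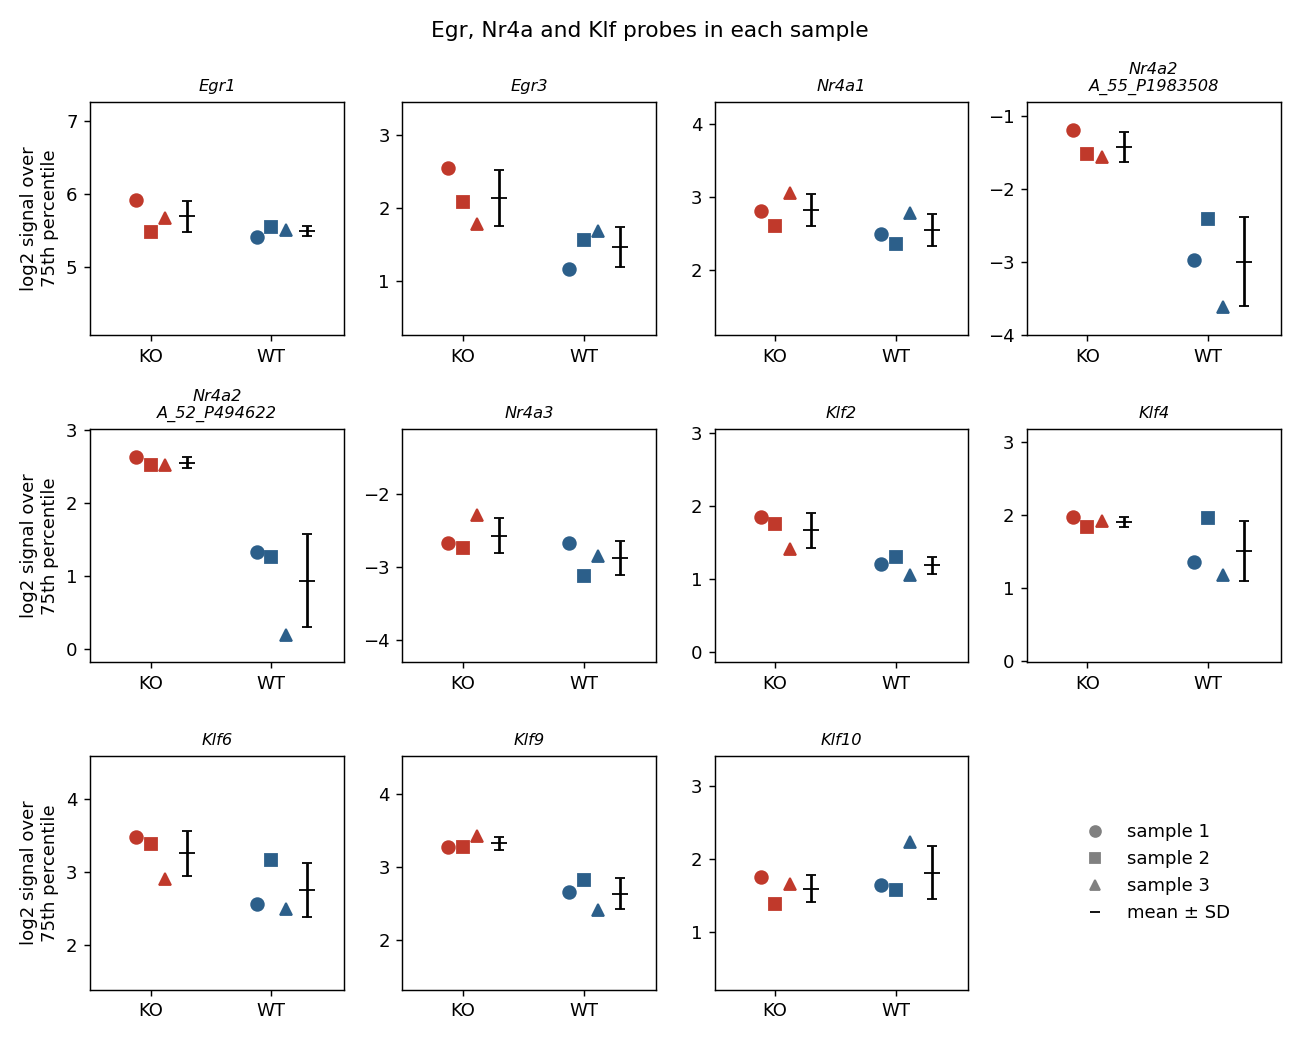
Log2 signal over the 75th percentile of the array for each of the 11 probes, in 3 KO samples (left, red) and 3 WT samples (right, blue), with symbols for the sample number and the mean and SD in black. Each panel spans the same range. Samples of the groups do not overlap for Egr3, both Nr4a2 probes, Klf2 and Klf9.

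Among the Egr genes, Egr1, the prototype of serum-induced zinc finger factors, had groups that overlapped. Its log2 signal was 5.91, 5.48 and 5.67 in KO samples 1, 2 and 3, against 5.41, 5.55 and 5.50 in WT samples 1, 2 and 3. KO sample 2 lay within the WT samples, and the other KO samples lay above all of them. The difference was 0.20 ± 0.15 (SE; 95% interval -0.17 to 0.58; limma adjusted p = 0.726).

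Egr3 is needed for muscle spindles in the mouse. Its log2 signal was 2.55, 2.09 and 1.78 in KO samples, against 1.17, 1.56 and 1.69 in WT samples. The groups did not overlap, though the lowest KO sample was only 0.10 above the highest WT sample. The difference was 0.67 ± 0.25 (1.59-fold), which did not pass (limma adjusted p = 0.418). Over 21 alternative settings it lay between 0.47 and 0.85, and it passed in 0 of the 20 that allow a test.

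The Nr4a genes encode nuclear receptors without a known classical ligand, and bind DNA as monomers or dimers. Nr4a1, known as Nur77, had a log2 signal of 2.81, 2.61 and 3.05 in KO samples, against 2.50, 2.36 and 2.78 in WT samples. In both groups sample 3 was the highest and sample 2 the lowest, and the groups overlapped. Its difference was 0.28 ± 0.18 (limma adjusted p = 0.679).

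Nr4a2, known as Nurr1 and needed for midbrain dopamine neurons, had the largest difference of the 10 genes, and both of its probes gave it. At probe A_52_P494622, whose sequence is given above, the log2 signal was 2.63, 2.52 and 2.51 in KO samples, against 1.33, 1.26 and 0.19 in WT samples. At probe A_55_P1983508 it was -1.19, -1.51 and -1.55 in KO samples, against -2.97, -2.40 and -3.61 in WT samples. WT sample 3 was the lowest of all at both probes, and the KO samples lay closer together (ranges of 0.13 and 0.36) than the WT samples (1.13 and 1.21).

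The difference of Nr4a2 was 1.62 ± 0.32 at the first of these probes (3.08-fold, 95% interval 0.84 to 2.41) and 1.58 ± 0.32 at the second (2.98-fold, 0.79 to 2.36). Neither passed (limma adjusted p = 0.167 and 0.177), and the exact two-sided permutation p was 0.1 at each, the smallest that 3 samples against 3 can give. With each array as a sample of its own both passed (limma adjusted p = 0.00708 and 0.0089), and likewise with a random block for the sample (0.0261 and 0.0259). Those fits count arrays toward their degrees of freedom, and they called 3.81% and 1.42% of all probes. Without WT sample 3 the differences were 1.26 and 1.27 (limma adjusted p = 0.161 and 0.266). Within slide 2, which holds 1 WT array, they were 1.24 and 0.97.

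Nr4a3, known as Nor1, was read by 10 spots on each array. Its log2 signal was -2.67, -2.74 and -2.29 in KO samples, against -2.67, -3.13 and -2.85 in WT samples. KO sample 3 was the highest, KO sample 1 was level with WT sample 1, and KO sample 2 lay below it. The 10 spots of an array had an SD of 0.055 to 0.144, below the SD between samples of 0.24 in KO and 0.23 in WT. The difference was 0.31 ± 0.19 (limma adjusted p = 0.646), with 0.17 within slide 1 and 0.58 within slide 2.

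**Figure D2:**
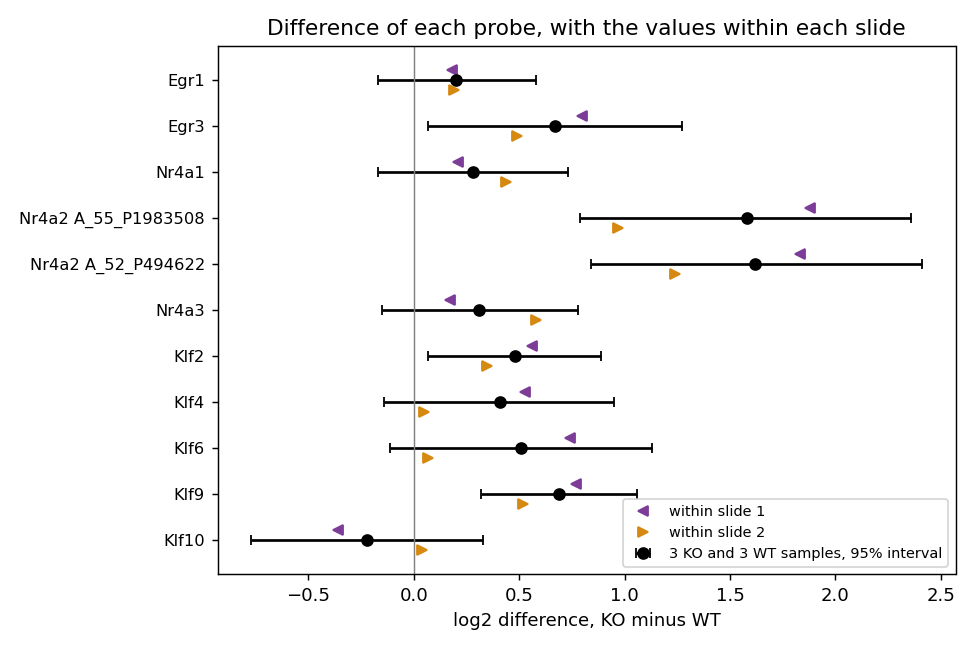
Log2 difference of KO minus WT for each probe, with the 95% interval of the fit of 3 KO and 3 WT samples (black) and the difference within slide 1 and slide 2 (coloured triangles, no interval drawn). The intervals of Egr3, both Nr4a2 probes, Klf2 and Klf9 lie above 0 before adjustment for all probes.

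Of the Klf genes among the 10 members, Klf9 had the smallest adjusted p. Klf9 is induced by glucocorticoid and thyroid hormone and restrains proliferation in several cell types. Its log2 signal was 3.28, 3.28 and 3.43 in KO samples, against 2.66, 2.83 and 2.42 in WT samples. The lowest KO sample was 0.45 above the highest WT sample, and the arrays of a KO sample differed by at most 0.04. The difference was 0.69 ± 0.15 (1.62-fold, 95% interval 0.32 to 1.06), which did not pass (limma adjusted p = 0.203). It passed with each array as a sample (limma adjusted p = 0.0114) and with a random block for the sample (0.0465), both of which count arrays.

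Klf2, which is driven by blood flow in endothelium and keeps T cells quiescent, had a log2 signal of 1.86, 1.76 and 1.41 in KO samples, against 1.21, 1.30 and 1.06 in WT samples. The groups did not overlap, with 0.10 between the nearest samples. The difference was 0.48 ± 0.17 (1.40-fold; limma adjusted p = 0.387). Klf4, a pluripotency factor that also acts in epithelium and endothelium, had 1.98, 1.84 and 1.92 in KO samples, against 1.36, 1.96 and 1.19 in WT samples. WT sample 2 lay within the KO samples, and the difference was 0.41 ± 0.22 (limma adjusted p = 0.607).

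Klf6, an injury-induced factor with tumour suppressor activity, had a log2 signal of 3.48, 3.39 and 2.90 in KO samples, against 2.56, 3.17 and 2.50 in WT samples. Here too WT sample 2 was the highest of its group, above KO sample 3, and the difference was 0.51 ± 0.25 (limma adjusted p = 0.562). Klf10, a TGF-beta inducible factor, had 1.75, 1.38 and 1.65 in KO samples, against 1.64, 1.57 and 2.23 in WT samples. It was the only one of the 10 genes with a lower mean in KO (-0.22 ± 0.22, limma adjusted p = 0.808), and WT sample 3 alone lay above all KO samples. Without WT sample 3 its difference was -0.01, and within slide 2 it was 0.04.

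For several genes the difference was not the same on both slides. Slide 1 holds 3 KO and 2 WT arrays and slide 2 holds 3 KO and 1 WT array, that of WT sample 2. Within slide 1 and slide 2 the difference was 0.53 and 0.05 for Klf4, 0.74 and 0.07 for Klf6, 0.80 and 0.49 for Egr3, 0.56 and 0.35 for Klf2, 0.77 and 0.52 for Klf9, 0.21 and 0.44 for Nr4a1 and 0.18 and 0.19 for Egr1. With slide as a block in the fit of samples, Nr4a2 differed by 1.54 and 1.43, Klf9 by 0.64, Klf6 by 0.40 and Klf4 by 0.29, and 0 of the 11 probes passed (limma). Every KO sample has an array on each slide, so only WT samples inform that block. The arrays of a KO sample differed by at most 0.06 for Klf6, 0.04 for Klf9, 0.08 for Klf2 and 0.22 for Klf4, so the gap for Klf6 lay in the WT arrays (3.17 in WT sample 2, against 2.56 and 2.50 in WT samples 1 and 3).

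The KO samples had no common order. Egr3, Klf2 and Klf6 were highest in KO sample 1 and lowest in KO sample 3, with ranges of 0.76, 0.45 and 0.59, while the arrays of a sample differed by at most 0.24, 0.08 and 0.06. Nr4a1 and Nr4a3 were highest in KO sample 3 instead. Klf4 and Klf9 had KO ranges of 0.14 and 0.15, where arrays of a sample differed by at most 0.22 and 0.04. Nr4a2 had KO ranges of 0.13 at probe A_52_P494622 and 0.36 at probe A_55_P1983508, where arrays differed by at most 0.11 and 0.08.

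Among 15020 named genes well above background on all arrays, those closest to Egr1 in their pattern over the 6 samples were Zfp593, Hal and Eps8l3, by the root mean square difference of centred log2 values (0.043, 0.051 and 0.052). Egr1 itself spanned 0.50 over these samples, so many genes of small spread come near it. The closest to Nr4a2, which spanned 2.44, were Vmn1r174 (0.169), Aldh1l1 (0.17) and Prr33 (0.186). Aldh1l1, an enzyme of folate metabolism, had a log2 signal of -0.63, -1.26 and -1.08 in KO samples, against -2.01, -2.33 and -3.34 in WT samples.

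Promoters were read for the 7 genes with an entry in the RefSeq table (build GRCm38.p6), which are Nr4a1, Nr4a2, Nr4a3, Klf2, Klf4, Klf6 and Klf9. Those of Nr4a2, Klf2 and Klf9 are shown, since these are genes whose KO samples all lay above the WT samples. Each run is the 250 bases before the annotated start, 5′ to 3′ on the strand of the gene, and capitals mark the Egr site GCGNGGGCG on either strand. The Nr4a2 run is chr2:57124004-57124253 (- strand), that of Klf2 is chr8:72318812-72319061 (+ strand) and that of Klf9 is chr19:23140976-23141225 (+ strand).
Nr4a2 promoter: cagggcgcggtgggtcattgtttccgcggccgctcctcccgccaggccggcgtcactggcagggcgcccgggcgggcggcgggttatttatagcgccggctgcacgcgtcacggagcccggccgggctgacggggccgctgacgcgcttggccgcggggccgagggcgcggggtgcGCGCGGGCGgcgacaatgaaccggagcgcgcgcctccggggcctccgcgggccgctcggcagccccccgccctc
Klf2 promoter: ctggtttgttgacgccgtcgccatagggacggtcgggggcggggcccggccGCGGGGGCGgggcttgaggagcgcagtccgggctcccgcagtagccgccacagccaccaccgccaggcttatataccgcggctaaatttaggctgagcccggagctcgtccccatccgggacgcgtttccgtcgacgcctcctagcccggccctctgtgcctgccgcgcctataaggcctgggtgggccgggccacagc
Klf9 promoter: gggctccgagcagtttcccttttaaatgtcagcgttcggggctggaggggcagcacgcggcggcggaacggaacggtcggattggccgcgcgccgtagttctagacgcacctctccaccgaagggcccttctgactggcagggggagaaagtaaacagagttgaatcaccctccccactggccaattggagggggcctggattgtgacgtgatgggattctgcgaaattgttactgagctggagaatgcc

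Counted back from the base before the start, the Egr site of Nr4a2 lay at -74 to -66 and that of Klf2 at -199 to -191. Nr4a1 had 1 such match (-60 to -52) and Klf4 had 2 (-211 to -203 and -194 to -186), so 4 of the 7 windows held the site, as compared to 5.55% of 32851 promoter windows of 300 bases. The site is made of G and C, and the runs of Nr4a2, Klf2, Nr4a1 and Klf4 were 80.0%, 71.2%, 74.4% and 74.0% G and C, where the median of all windows was 52.4%. Klf9 had 59.6% and no match. The Nr4a site NBRE (AAAGGTCA), the cyclic AMP element CRE (TGACGTCA) and the CArG box of SRF had no match in the 7 windows, and were in 1.51%, 1.79% and 1.63% of all windows. Only the full string of each site was searched, so shorter forms, such as a part of the CRE, were not counted. A match is a string of letters and was not tested as a binding site.

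The genes that share the early response with these factors were counted from lists, with 1 probe for each gene. Of 33 measured AP-1 and other immediate early genes 29 were higher in KO (47.2% of all genes and features were) and 4 lower, with a median difference of 0.36 on the log2 scale. Limma called 0 of them over all probes, where it called 0.0494% of all genes and features. At an unadjusted p under 0.05 there were 13 of the 33, all higher (6.49% of all genes and features were higher and 3.9% lower at that level). KO samples lay above all WT samples at 17 of them and below at 0 (8.62% and 8.09% of all). Earlier results of these data were known when the list was written, so its direction is not independent evidence.

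The members with the smallest p in that list were Cebpd, Ccn2, Gadd45b and Trib1. Cebpd, a C/EBP factor of the acute phase response, had a log2 signal of 3.54, 3.51 and 3.76 in KO samples, against 1.94, 2.42 and 2.09 in WT samples (1.45 ± 0.17, limma adjusted p = 0.0815). Ccn2, the matricellular protein CTGF and a target of Yap and TGF-beta, had 1.31, 1.19 and 1.90 in KO samples, against -1.78, -0.78 and -1.12 in WT samples (2.69 ± 0.32, limma adjusted p = 0.083). The groups lay far apart for both, beyond the spread of either group. Gadd45b, a stress sensor, differed by 0.60 ± 0.11, and the pseudokinase Trib1 by 0.82 ± 0.15 (limma adjusted p = 0.151 each). The Fos and Jun genes measured differed less, with 0.29 for Fos, 0.36 for Fosb and 0.49 for Fosl2. The values were 0.15 for Jun, 0.33 for Junb and 0.37 for Jund (limma adjusted p of these genes between 0.28 and 0.778). KO samples lay above all WT samples for each of them but Jun (8.62% of all genes and features did). Atf3 and Maff of the same list differed by 0.56 ± 0.17 and 0.60 ± 0.26 (limma adjusted p = 0.334 and 0.487).

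**Figure D3:**
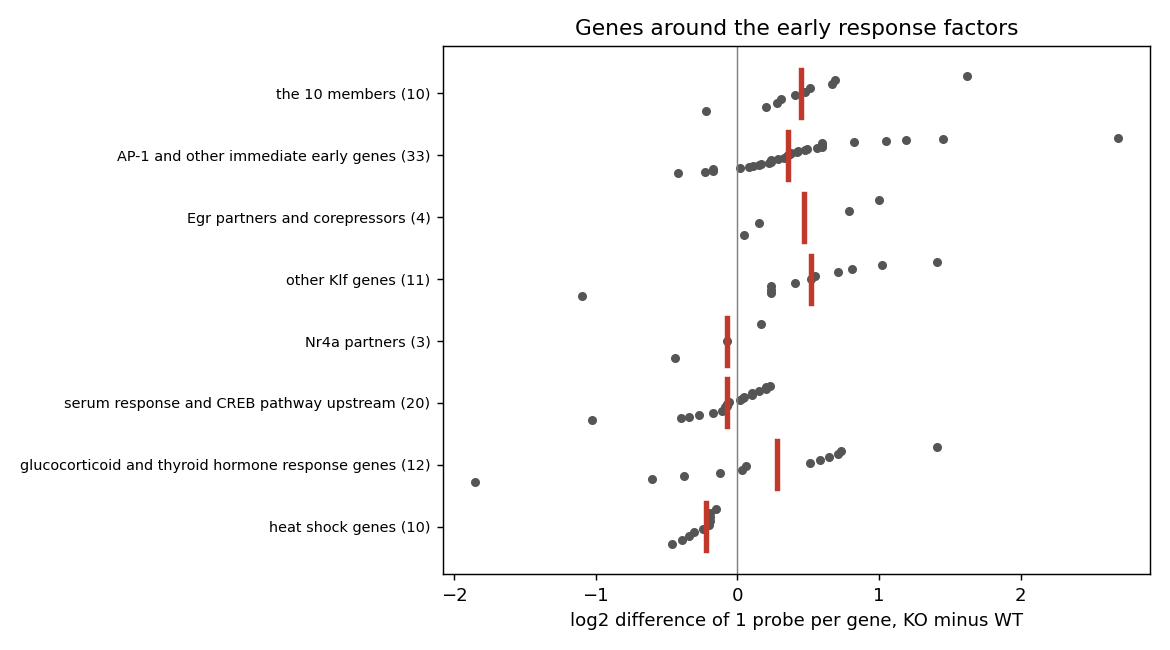
Log2 difference of KO minus WT for each measured gene (grey points) of the lists around the early response factors, with the number measured in brackets and the list's median as a red bar. The medians of the 10 members (0.45), of the other Klf genes (0.52) and of the immediate early genes (0.36) lie above 0, and that of the heat shock genes (-0.22) below 0. The other Klf genes include Klf8, which passed the filter on dim probes through KO arrays alone.

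The other members of the Klf and Egr families were counted the same way. Of 11 other Klf genes measured 10 were higher (47.2% of all genes and features were) and 1 lower (median 0.52). At an unadjusted p under 0.05 there were 5, all higher (6.49% of all genes and features were), and limma called 0 over all probes (0.0494% of all). Klf8, 1 of those higher, was well above background on 4 of 6 KO arrays and 0 of 3 WT arrays. It passed the filter through KO arrays alone, so its direction supports nothing. Over probes well above background on all 9 arrays the median was 0.52. Klf5, a factor of gut epithelium and smooth muscle, had the smallest p, with -0.10, -0.17 and -0.56 in KO samples, against -1.51, -1.11 and -1.26 in WT samples (1.02 ± 0.19, limma adjusted p = 0.145). Klf13 differed by 0.41 ± 0.12, Klf11 by 0.81 ± 0.28 and Klf15, a target of glucocorticoid, by 0.71 ± 0.26 (limma adjusted p = 0.308, 0.389 and 0.424). Egr2, which drives myelination in Schwann cells, had 3.14, 2.89 and 2.90 in KO samples, against 2.02, 2.47 and 2.07 in WT samples. Its difference was 0.79 ± 0.17 (limma adjusted p = 0.202), beside 0.67 for Egr3.

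None of the partners that hold these factors in check or dimerise with them passed. Nab1 and Nab2, which repress Egr activity, differed by 0.05 ± 0.17 and 0.15 ± 0.13, and Wt1, a zinc finger factor of the same DNA motif, by 1.0 ± 0.99 (limma adjusted p between 0.77 and 0.954). The retinoid receptors Rxra, Rxrb and Rxrg, which dimerise with Nr4a1 and Nr4a2, differed by -0.44 ± 0.38, -0.07 ± 0.14 and 0.17 ± 0.16 (limma adjusted p between 0.766 and 0.918). Wt1 was well above background on 4 of 6 KO arrays and 1 of 3 WT arrays.

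Of 20 genes upstream in the serum response and CREB pathways 9 were higher (47.2% of all genes and features were) and 11 lower (median -0.07). Limma called 0 of them over all probes (0.0494% of all genes and features). The kinase Rps6ka1 differed by -1.03 ± 0.39, the ternary complex factor Elk3 by -0.40 ± 0.17, the kinase Mapk3 by -0.34 ± 0.19 and the SRF coactivator Mrtfb by 0.23 ± 0.15 (limma adjusted p between 0.427 and 0.686). Rps6ka1 was dim, with -4.46, -5.66 and -5.68 in KO samples, against -3.84, -4.55 and -4.32 in WT samples. The lowest signal well above background on an array lay between -6.11 and -5.77. Of 12 glucocorticoid and thyroid hormone response genes 8 were higher and 4 lower (median 0.28), and 0 passed. KO samples lay above all WT samples at 4 of the 12 and below at 2 (8.62% and 8.09% of all genes and features). The glucocorticoid-induced chaperone partner Fkbp5 and the clock gene Per1, which like Klf9 answer to glucocorticoid, differed by 0.73 ± 0.13 and 0.51 ± 0.13, with KO samples above all WT samples (limma adjusted p = 0.142 and 0.255). Dio2, the enzyme that activates thyroid hormone, differed by -1.85 ± 0.18, and Hr, a target of thyroid hormone in brain, by -0.60 ± 0.15, with KO samples below all WT samples (limma adjusted p = 0.0617 and 0.254).

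Heat shock genes, most of which encode chaperones, were counted as a further list of stress genes. All 10 measured were lower in KO (median -0.22), and 0 passed limma, with 0 at an unadjusted p under 0.05 (3.9% of all genes and features were lower at that level) and 2 whose KO samples lay below all WT samples (8.09% of all). The small chaperone Hspb1 differed by -0.46 ± 0.21, the mitochondrial chaperonin Hspd1 by -0.34 ± 0.16, the co-chaperone Dnajb1 by -0.39 ± 0.18 and the chaperone Hsp90ab1 by -0.24 ± 0.13 (limma adjusted p between 0.517 and 0.612). The median of the list against the WT mean was -0.31, -0.30 and -0.09 in KO samples 1, 2 and 3, against 0.15, -0.10 and -0.01 in WT samples.

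Markers of other cell types were counted beside the early response genes, since endothelium is known to express Klf2 and Klf4 and Schwann cells Egr2. In a sorted population, more cells of a type and more RNA per cell cannot be told apart. Of 12 endothelial markers 12 were higher in KO (47.2% of all genes and features were) and 0 passed (median 0.77), with a median against the WT mean of 1.57, 0.17 and 0.56 in KO samples, against -0.12, 0.30 and -0.15 in WT samples. Their summed linear signal relative to the 75th percentile lay between 5.82 and 8.79 in KO samples and between 4.42 and 5.62 in WT samples. Such a sum, here and for the lists below, mostly follows the probes of highest signal, so it does not stand for every marker. Well above background on all arrays were 9 of the 12. The markers with the smallest p were Cdh5, the cadherin of endothelial junctions, which differed by 1.48 ± 0.32, and Flt1, by 1.27 ± 0.26 (limma adjusted p = 0.202 and 0.186). Flt1 was well above background on 2 of 3 WT arrays. Kdr, Tek, Emcn and Eng differed by only 0.17 ± 0.15, 0.17 ± 0.20, 0.24 ± 0.72 and 0.01 ± 0.24. Over probes well above background on all 9 arrays the endothelial median was 0.57. Without KO sample 1 the endothelial median was 0.40, and within slide 2 it was 0.37.

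Of 8 glial markers 7 were higher (47.2% of all genes and features were; median 0.96), with a summed signal of 33.1 to 35.7 in KO samples and 22.4 to 28.8 in WT samples. Mbp, a myelin protein, had the smallest p of these and differed by 1.38 ± 0.19 (limma adjusted p = 0.0931), while Ngfr was lower (-0.35 ± 0.25). Of 10 mesenchymal markers 9 were higher (median 0.76, and 0.41 over probes well above background on all 9 arrays), with sums of 143 to 154 in KO samples and 111 to 129 in WT samples. Col1a1 had the smallest p of these and differed by 1.91 ± 0.27 (limma adjusted p = 0.0987). Col3a1, Dpt, Pi16 and Gsn differed by only 0.03 ± 0.12, -0.01 ± 0.22, 0.02 ± 0.24 and 0.20 ± 0.18. The defining receptor Pdgfra, with log2 means of -4.12 in KO and -7.05 in WT, was not well above background on the 3 WT arrays, and the KO level was higher by at least 3.49-fold over the lowest signal well above background. It passed the filter through KO arrays alone, so its limma adjusted p of 0.123 supports nothing. Of 9 mural markers 8 were higher (median 0.63), with sums of 128 to 144 in KO samples and 132 to 140 in WT samples. Pdgfrb had the smallest p of these and differed by 1.35 ± 0.12 (limma adjusted p = 0.0567). Acta2 and Kcnj8 differed by 0.20 ± 0.15 and 0.26 ± 0.52, and Mcam was lower (-0.10 ± 0.12). Mcam had the highest signal of the mural probes (log2 means of 6.65 in KO and 6.75 in WT), so the mural sums mostly follow it. Satellite cell markers had a median of 0.07 (9 of 13 higher), and 0 markers of any list passed.

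Blood and muscle fibre markers had medians nearer to 0. The median was -0.07 for 11 myeloid markers (4 higher; sums of 121 to 134 in KO samples and 124 to 144 in WT samples), -0.09 for 4 lymphoid markers (0 higher; 0.577 to 0.665 in KO samples and 0.634 to 0.677 in WT samples), -0.14 for 7 muscle fibre markers (3 higher; 37.1 to 43.5 in KO samples and 34.9 to 46.2 in WT samples; sample median 0.83 in KO sample 1) and 0.14 for 2 erythroid markers (1 higher; 0.385 to 0.491 in KO samples and 0.279 to 0.471 in WT samples). The myeloid sums mostly follow Itgam (log2 means of 6.94 in KO and 7.02 in WT), and the muscle fibre sums Atp2a1 (4.94 and 5.08). Among genes of proteins that the sort selected against, Pecam1 (CD31) differed by 1.97 ± 0.91 and Ly6a (Sca1) by 1.82 ± 1.03. Ptprc (CD45) differed by -0.02 ± 0.31 and Itgam (CD11b) by -0.08 ± 0.13 (limma adjusted p of these genes between 0.523 and 0.99). The part of any of the cell types counted above in the early response values was not tested.

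**Figure D4:**
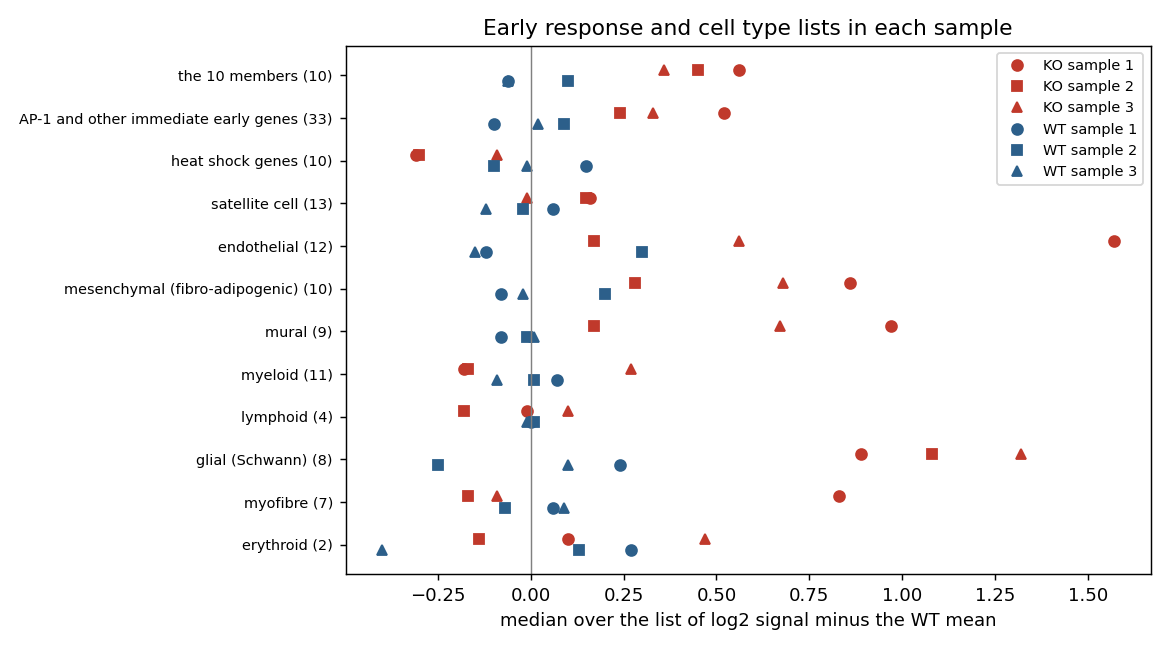
Median over each list of the log2 signal minus the WT mean, in 3 KO samples (red) and 3 WT samples (blue), with the number of measured genes in brackets. The KO samples lie at 0.36 to 0.56 for the 10 members and at 0.24 to 0.52 for the immediate early genes, and the endothelial list spreads from 0.17 to 1.57 in KO.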

How the data were processed

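Gene expression was measured on 9 one-colour Agilent arrays (6 KO, 3 WT). Per the labels' protocols, RNA of sorted cells was amplified by whole transcriptome amplification and the cDNA labelled with Cy3, a step that can distort levels, which was not tested. The authors deposited spot intensity as scanner output. Per the file headers, Agilent Feature Extraction 10.7.3.1 subtracted background, removed spatial trends and set a surrogate for dim values. A table of log2 values was deposited too. How the authors made it is not stated in the labels. It matched normexp with an offset of 50 and quantile normalization (r of at least 0.999976), so its scale is known from this match only, with no centring (median 7.806 in each column) and no change of direction, and it was used as an alternative.

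Outlier spots, 93 to 148 on an array, were dropped, repeat spots averaged, and 35 empty probe values filled with the probe's mean. Log2 of the processed signal minus each array's 75th percentile was used. The filter kept 42983 of 55681 probes, those that 3 or more of the 9 arrays showed well above background. Arrays within a KO sample scattered with an SD of 0.201 to 0.217, somewhat above that of repeat spots (0.128 to 0.184). The plan was to count them once where they differed no more than repeat spots, which was not strictly met. Their scatter was still close to that of repeat spots and their correlation far higher than that of other pairs, so each pair was averaged. The comparison of KO with WT used limma 3.58.1 (lmFit, eBayes; R 4.3.3), tested on simulated data, with Benjamini-Hochberg adjustment over all kept probes and a threshold of 0.05. Exact permutation tests used scipy 1.17.1. The number of arrays limits the precision.

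For lists, the kept probe of a gene with the highest mean was used, with names updated through a RefSeq table (GRCm38.p6, names only; 26401 probes matched by accession, 1982 by symbol, 337 by synonym, and 26961 kept their name). Coordinates of probes are those of the array design. The text names every member, the 4 genes of each pathway list with the smallest p, and the 3 genes closest in pattern to Egr1 and to the member of widest range. The AP-1 genes and the cell type markers named were chosen after their values were seen. The members and lists were chosen with earlier results of these data known. The alternatives were other background corrections, normalizations and filters, the authors' table, separate arrays, slide and replicate blocks, values within a slide, samples left out and 1 probe per gene.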

Additional observations from a re-analysis of the deposited data

How the results depend on the processing

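Limma called 21 of 42983 probes in all, and that count rested on the settings. It was 282 after normexp with the 75th percentile, 208 in the authors' processed table, 62 with probes well above background on all 9 arrays and 40 with 1 probe per gene. Arrays taken as separate samples gave 1639, the sample as a random block 610, and slide added to that block 364. Slide as a block of samples gave 1, and within slide 1 limma called 0 (4335 at an unadjusted p under 0.05). Leaving out 1 sample gave 0 to 3 (0 without WT sample 1, 2 or 3 or KO sample 2, 3 without KO sample 1 and 2 without KO sample 3). The replicate block, which pairs samples by number, gave 0 (limma, 4361 at an unadjusted p under 0.05) and changed no call of a member. Same-numbered samples had deviations that correlated at -0.027, 0.015 and 0.019. These values show no shared deviation, but they cannot tell whether KO and WT samples of a number were handled together. The cause of these shifts was not tested.

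The count of member probes called was 0 in every tested setting but 2, where it was 3 (both Nr4a2 probes and Klf9), for separate arrays and for the random block, both of which count arrays toward their degrees of freedom. Of 230 differences of single member probes under the alternatives, 1 changed sign, that of Klf10 within slide 2 (0.04). The range over alternatives was 1.24 to 1.83 for Nr4a2 at probe A_52_P494622, 0.97 to 1.88 at probe A_55_P1983508, 0.52 to 0.79 for Klf9, 0.35 to 0.62 for Klf2, 0.05 to 0.64 for Klf4, 0.07 to 0.74 for Klf6 and 0.09 to 0.30 for Egr1. The median of the 10 members lay between 0.38 and 0.59 and that of the heat shock genes between -0.31 and -0.14. With 3 samples a group, differences of the size of Egr1 could not be told from 0.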
